A study of Mus musculus with 4 samples.

Results

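The genes described here are 34 interferon-stimulated genes, chosen by symbol from a list made for this series. All 34 had a row among the 28001 RNA features of each of 4 droplet libraries of mouse heart cells, and no member was left out. Interferons are secreted proteins that cells release when they sense viral nucleic acid or when lymphocytes are activated. Type I interferons signal through the receptor chains Ifnar1 and Ifnar2 to a complex with Stat2 and Irf9 that binds interferon-stimulated response elements. Interferon gamma signals through Ifngr1 and Ifngr2 and acts at gamma-activated sites, and the factor Irf1 that it induces extends the response. Heart fibroblasts carry both kinds of receptor, and many of the induced genes hinder viral replication or intracellular parasites.

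Members were taken by role. The regulators were Irf1, Irf7, Irf9 and Stat2. A type I set held 6 genes, Ifit1, Ifit2, Ifit3, Isg15, Oasl2 and Oas2, which encode RNA-binding proteins, a ubiquitin-like modifier and members of the oligoadenylate synthetase family. A GBP and IRG set held 8 genes for guanylate-binding proteins and immunity-related GTPases, Gbp2, Gbp3, Gbp5, Gbp7, Iigp1, Igtp, Irgm1 and Ifi47. Sensors and effectors were the 9 genes Ifih1, Ddx58, Eif2ak2, Zbp1, Parp14, Trim30a, Rsad2, Bst2 and Usp18. The other 7 were Xaf1, Ifi44, Ifi35, Rtp4, Ifi27, Ifi27l2a and Lgals3bp.

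All mice were on a C57BL/6 background and all cells came from heart. Cells positive for tdTomato came from Hic1 CreERT2 tdTomato mice, in which a Cre recombinase made under control of the mesenchymal gene Hic1 turns on a lasting red reporter. These cells were taken from undamaged hearts in the first library and 7 days after LAD ligation in the second (tying off a main branch of the left coronary artery, which causes a myocardial infarct), with 3 hearts pooled in each. The third library held Hic1 Citrine+ cells of 3 undamaged hearts, each marked with its own hashtag. The fourth held cells of 4 hashed hearts of PDGFRa H2BEGFP+ mice (B6.129S4-Pdgfratm11(EGFP)Sor/J), in which nuclei of cells that express Pdgfra carry a green label. Of these 4 hearts 2 were undamaged and 2 were taken 7 days after LAD ligation, but the labels do not say which hashtag is which. Values of these hearts are therefore given by hashtag number. The ages of the mice and the schedule of Cre induction are not given in the sources used here.

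Filtering left 2786 and 4263 cells of the undamaged and ligated tdTomato libraries, 10838 of citrine and 12567 of PDGFRa, with median unique molecular identifiers (UMIs) per cell of 3453, 3668, 8039 and 7729. Pairs of libraries shared between 0 and 36 of the deposited barcodes, with 36 between citrine and PDGFRa. Clusters made without the members were named from marker genes, and names end in "-like" because they rest on RNA. Fibroblast-like cells numbered 2430, 3125, 10611 and 12497 in the same order. Pericyte-like cells numbered 184 in the undamaged and 822 in the ligated tdTomato library and 219 in the citrine library, and smooth-muscle-like cells numbered 159 and 296 in the tdTomato libraries. Their defining markers were present, but pericyte markers summed to 22017 UMIs per 1000000 (CPM) in undamaged smooth-muscle-like cells, so these classes were not sharply apart. Within fibroblast-like cells, progenitor-like clusters (Pi16, Dpp4, Cd55) held 255, 322, 996 and 1971 cells. Activated-like clusters (Postn, Cthrc1) held 418 ligated tdTomato and 2377 PDGFRa cells. A citrine cluster of 238 cells that the same marker rule picked was led by the inflammatory genes Ccl2, Ptgs2 and Cxcl5, and its activated markers summed to 847 CPM against 9396 and 12589 CPM in those clusters, so it is called by its leading genes.

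Promoter sequence was examined because most members varied together across cells. RefSeq windows of 250 bases before to 50 bases after the start were at hand for 26 of the 34 members (GRCm38.p6). They were not at hand for Oas2, Usp18, Iigp1, Parp14, Rtp4, Zbp1, Ifi27 and Ifi27l2a. The response element core GAAANNGAAA, searched on both strands, was present in 16 of 26 members (61.5%) and in 3.99% of 27025 genes with a window. The gamma-activated site core TTCNNNGAA was present in 8 of 26 members (30.8%) and in 9.55% of genes. All 6 sensors and effectors with a window, 6 of 7 GBP and IRG genes, 3 of 5 type I genes, 1 of 4 regulators and 0 of 4 others held the response element core. The gamma-activated core was in 3 of 7 GBP and IRG genes (Gbp5, Gbp7, Igtp), in 2 of 6 sensors and effectors (Bst2, Eif2ak2), in 1 of 5 type I genes (Ifit2), in 1 of 4 regulators (Irf1) and in 1 of 4 others (Ifi35). The 2 cores share bases in Bst2. A match is a description of letters and not a shown binding site.

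Stretches upstream of 7 starts are printed 5′ to 3′ on the strand of the gene, with every match to either core that lies wholly inside them in capitals. Ifit1 (chr19:34640744-34640870, plus strand), Ifit3 (chr19:34583379-34583528, plus strand) and Isg15 (chr4:156200819-156200968, minus strand) show the response element core of type I genes, with 2, 1 and 3 matches, those of Isg15 overlapping. Gbp7 (chr3:142530186-142530335, plus strand) and Igtp (chr11:58199406-58199555, plus strand) show both cores in GTPase genes. Irf1 (chr11:53769864-53770013, plus strand) holds a gamma-activated core and no response element core, and Rsad2 (chr12:26456453-26456602, minus strand), for the antiviral protein viperin, holds the response element core alone. None of the stretches lies in an annotated exon.
Ifit1: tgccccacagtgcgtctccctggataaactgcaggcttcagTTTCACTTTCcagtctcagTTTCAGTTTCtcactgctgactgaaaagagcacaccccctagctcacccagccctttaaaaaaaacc
Ifit3: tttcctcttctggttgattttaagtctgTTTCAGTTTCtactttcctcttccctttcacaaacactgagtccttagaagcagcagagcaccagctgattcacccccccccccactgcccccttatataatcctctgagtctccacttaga
Isg15: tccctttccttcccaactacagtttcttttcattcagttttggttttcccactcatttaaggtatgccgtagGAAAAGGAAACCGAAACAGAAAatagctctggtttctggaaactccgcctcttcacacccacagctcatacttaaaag
Gbp7: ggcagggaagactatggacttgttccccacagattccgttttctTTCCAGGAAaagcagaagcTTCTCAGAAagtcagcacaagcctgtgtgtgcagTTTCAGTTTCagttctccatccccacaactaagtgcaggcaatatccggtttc
Igtp: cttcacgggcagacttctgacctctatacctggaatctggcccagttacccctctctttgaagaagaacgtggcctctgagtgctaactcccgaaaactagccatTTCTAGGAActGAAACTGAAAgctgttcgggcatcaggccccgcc
Irf1: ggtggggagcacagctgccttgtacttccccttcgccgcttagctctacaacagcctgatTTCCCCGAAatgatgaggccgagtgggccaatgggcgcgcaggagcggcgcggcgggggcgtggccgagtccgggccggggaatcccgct
Rsad2: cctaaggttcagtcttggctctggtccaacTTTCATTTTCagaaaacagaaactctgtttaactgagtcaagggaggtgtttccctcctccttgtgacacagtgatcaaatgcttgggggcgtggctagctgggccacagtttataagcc

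Among the interferon-stimulated genes, Ifi27l2a stood highest in fibroblast-like cells of every library, and the other members stood below it. Levels are counts of molecules read at the transcript's end, given as CPM of all UMIs of the class, so they were not divided by length. Ifi27l2a, a small membrane protein gene, stood at 2543 CPM in undamaged tdTomato, 2362 in ligated tdTomato, 2861 in citrine and 991 in PDGFRa fibroblast-like cells. The next members in the undamaged tdTomato library were Ifi27 at 431, Bst2 (tetherin, which holds budding virus at the cell surface) at 248 and Irf1 at 169 CPM. Oas2 was lowest, between 0.440 and 1.26 CPM over the 4 libraries. The type I set summed to 279, 291, 197 and 188 CPM in the 4 libraries, and the GBP and IRG set to 272, 239, 186 and 179 CPM. The tdTomato libraries were above the other 2 for both sets, but they were also the shallower libraries per cell. With each cell thinned to 2000 UMIs, the type I set was 279, 277, 204 and 169 CPM in the 4 libraries. The GBP and IRG set was then 286, 237, 177 and 187 CPM. Reporter and library cannot be told apart, and other effects of depth were not tested. Macrophage and monocyte markers summed to between 5.27 and 8.03 CPM in these cells.

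**Figure D1:**
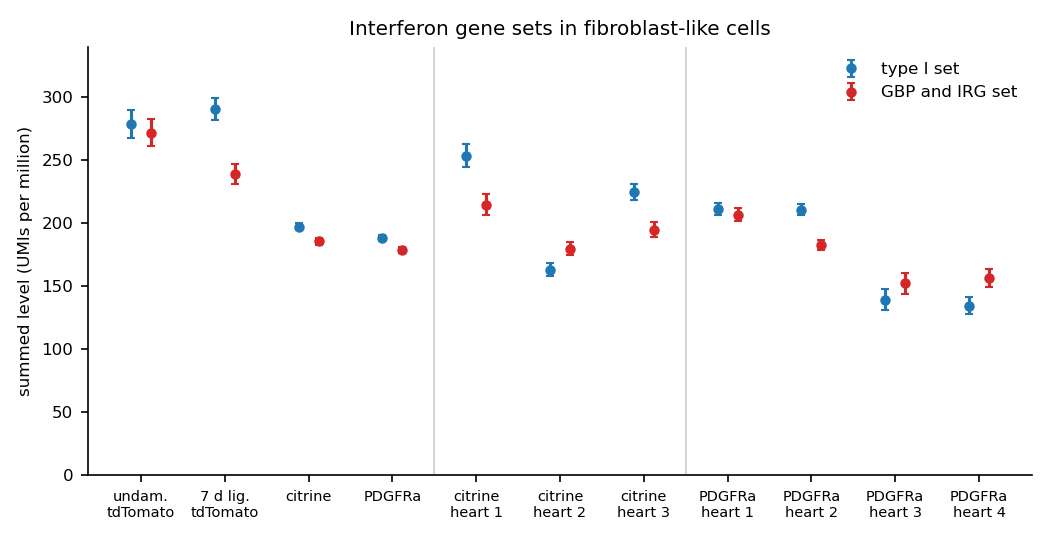
Summed level of the type I set (blue) and of the GBP and IRG set (red) in fibroblast-like cells, in CPM, for the 4 libraries, the 3 citrine hearts and the 4 PDGFRa hearts; bars are exact 95% Poisson intervals and cover counting error only. The 3 citrine hearts, all undamaged, span 163 to 254 CPM for the type I set, nearly the span of the 4 libraries.

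Citrine hearts 1, 2 and 3 gave 254, 163 and 225 CPM for the type I set and 215, 180 and 195 CPM for the GBP and IRG set in fibroblast-like cells. All 3 were undamaged, and heart 2 was lowest for both. Counting intervals are too narrow to set these hearts apart, since type I UMIs lay clumped in cells, with a variance 5.93, 4.79 and 6.38 times the mean over thinned cells of hearts 1 to 3. PDGFRa hearts 1 to 4 gave 211, 211, 139 and 135 CPM for the type I set and 207, 183, 152 and 157 CPM for the GBP and IRG set.

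Among regulators, Irf1, a transcription factor that answers interferon gamma and inflammatory signals, varied most between PDGFRa hearts. Its level was 169, 153, 64.5 and 43.5 CPM in hearts 1 to 4, against 55.1, 73.2 and 62.6 CPM in the citrine hearts. PDGFRa hearts 1 and 2 were above all 3 citrine hearts, heart 3 was within their range and heart 4 below it. The activated marker Postn was 3441, 3808, 218 and 258 CPM in the same 4 hearts, and its part in the Irf1 values was not tested. Irf7, the factor that amplifies type I interferon production, was 27.1, 24.8, 16.8 and 15.0 CPM in PDGFRa hearts and 41.8, 26.1 and 43.0 CPM in citrine hearts.

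Type I genes followed 2 patterns over the hearts. Isg15, the ubiquitin-like modifier, was 96.3, 89.8, 48.6 and 42.9 CPM in PDGFRa hearts 1 to 4 and 80.5, 56.5 and 70.6 CPM in citrine hearts. Ifit3 was 52.4, 50.1, 26.5 and 28.9 CPM in PDGFRa hearts and 63.6, 37.1 and 56.5 CPM in citrine hearts. Ifit1 was 27.0, 33.1, 20.5 and 21.5 CPM in PDGFRa hearts and 51.7, 21.1 and 39.6 CPM in citrine hearts. These 3 were higher in PDGFRa hearts 1 and 2 than in hearts 3 and 4, and lowest in citrine heart 2 of the citrine hearts. Oasl2 ranged from 23.8 to 27.2 CPM over PDGFRa hearts and from 30.1 to 39.8 over citrine hearts. Ifit2 was highest in PDGFRa heart 3 at 19.9 CPM and lowest in heart 1 at 9.27. Oas2 stayed at 0 to 2.04 CPM over all hearts.

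Guanylate-binding proteins, which attack the membranes of parasite vacuoles, varied less than Iigp1. Gbp2 ranged from 32.0 to 39.6 CPM over PDGFRa hearts and from 44.1 to 45.9 over citrine hearts, and Gbp7 from 32.1 to 34.7 and from 36.9 to 40.0. Gbp3 ranged from 11.7 to 15.1 CPM over PDGFRa hearts and from 17.2 to 22.8 over citrine hearts. Iigp1, an immunity-related GTPase of the same defence, was 65.8, 55.0, 31.9 and 28.7 CPM in PDGFRa hearts 1 to 4 and 40.6, 26.5 and 33.8 CPM in citrine hearts. Gbp5 was 11.4, 11.5, 6.88 and 7.21 CPM in PDGFRa hearts and 6.79 to 8.40 in citrine hearts. Ifi47 was lower in all 4 PDGFRa hearts, 1.60 to 5.75 CPM, than in the citrine hearts, 9.06 to 15.5 CPM. Igtp at 9.41 to 13.8 CPM and Irgm1 at 18.6 to 27.7 CPM moved little over the 7 hearts.

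Of the remaining members, Bst2 was 274, 254, 163 and 210 CPM in PDGFRa hearts 1 to 4 and 219, 151 and 220 CPM in citrine hearts. Ifi44 was 7.86, 6.53, 0.123 and 1.68 CPM in PDGFRa hearts and 0.705 to 1.90 in citrine hearts. Ifi27l2a ran the other way, at 698, 726, 1332 and 1993 CPM in PDGFRa hearts 1 to 4 and 3247, 2269 and 3127 CPM in citrine hearts. Ifi27 was likewise lower in PDGFRa hearts 1 and 2, at 223 and 215 CPM, than in hearts 3 and 4, at 335 and 290 CPM. The 34 members thus did not move as a block between these hearts.

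**Figure D2:**
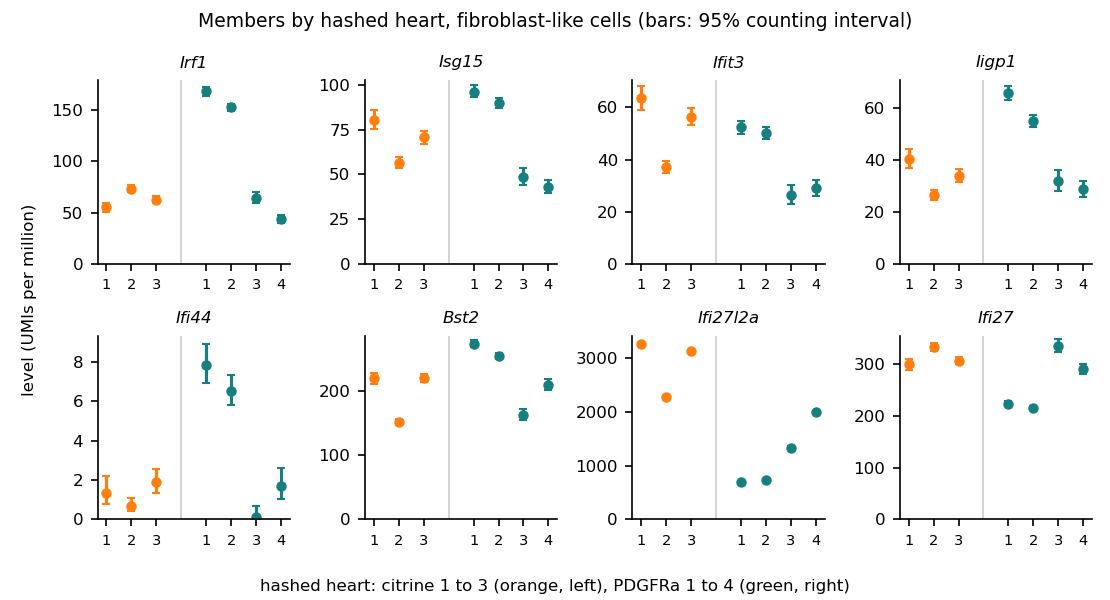
Level of 8 members in fibroblast-like cells of each hashed heart, in CPM from 0, with citrine hearts in orange and PDGFRa hearts in green; bars are exact 95% Poisson intervals. Irf1 stands at 169 and 153 CPM in PDGFRa hearts 1 and 2 and at 43.5 to 73.2 CPM in the other 5 hearts, while Ifi27l2a is lowest in PDGFRa hearts 1 and 2.

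The 2 tdTomato libraries compare hearts 7 days after ligation with undamaged hearts. In fibroblast-like cells the members differed little: of 33 members with at least 20 UMIs in both sums together, 0 were over 2-fold higher and 0 over 2-fold lower. Over all 12294 genes counted this way, 7.05% were past 2-fold, 2.81% higher and 4.24% lower. With 1 library in each group there is no test, and intervals of ratios cover counting error only. The median log2 ratio was -0.11 over the members and -0.06 over all genes, and 13 of 33 members were above 0. Oas2 was under the minimum, with 15 UMIs against 4.

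Irf1 was 222 CPM in ligated and 169 CPM in undamaged fibroblast-like cells, a ratio of 1.31 (95% interval 1.23 to 1.39), and Irf7 was 56.0 against 43.3 CPM. In the type I set, Isg15 was 124 against 107 CPM, Ifit1 52.8 against 44.2, Ifit2 14.5 against 15.6, Ifit3 50.6 against 58.7 and Oasl2 48.3 against 52.9. Type I genes thus lay on either side of equal. The GBP and IRG set held the widest spread. Gbp5 was 23.2 CPM against 13.3, a ratio of 1.73 (1.41 to 2.16). Gbp3 was 19.6 CPM against 30.5, or 1.55-fold lower (1.31 to 1.84), and Iigp1 54.0 CPM against 78.8, or 1.46-fold lower (1.32 to 1.62). Zbp1, a sensor of Z-form nucleic acid, was 16.1 CPM against 9.57, a ratio of 1.67. Irgm1, Igtp, Gbp2, Gbp7 and Ifi47 lay between these, with 16.5 against 21.0, 15.3 against 17.0, 62.8 against 61.2, 38.8 against 40.9 and 9.08 against 9.13 CPM. The 418 activated-like cells were found in the ligated library and none in the undamaged one, and without them 2 members passed 2-fold, 1 in each direction.

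Interferon pathway genes that are not members lay on both sides of equal in these cells. Over all genes 2.81% were over 2-fold higher and 4.24% over 2-fold lower. Of 27 ligands, receptors and signalling genes tested, 13 had a log2 ratio above 0, with a median of -0.02, and 3 were over 2-fold higher and 0 lower. They were Socs3, a feedback inhibitor of cytokine receptors, at 1555 against 723 CPM, and the DNA sensor genes Mb21d1 (cGAS) at 8.32 against 3.74 and Tmem173 (STING) at 12.5 against 5.61. Of 53 other interferon-induced genes tested, 25 were above 0, with a median of -0.07, and 4 were over 2-fold higher and 1 lower. Ifitm1 was 58.7 against 25.7 CPM, Cxcl9 2.98 against 1.21, Mx1 had 23 UMIs against 4, Gbp2b had 31 UMIs against 0, and Gbp6 was 3.88 against 8.47 CPM.

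Pericyte-like cells differed in a single well-counted member. Ifi27l2a was 439 CPM in ligated and 120 CPM in undamaged pericyte-like cells, a ratio of 3.57 (2.64 to 5.24), and 281 of 822 ligated and 25 of 184 undamaged cells held a UMI of it. The markers of fibroblasts, where Ifi27l2a was high, summed to 6881 CPM in the ligated and 5093 CPM in the undamaged pericyte-like cells, and their part was not tested. Usp18, the protease that removes Isg15 from proteins, was 17.0 against 32.3 CPM on 41 and 10 UMIs, or 2.04-fold lower once 1 UMI was added to each sum, with an interval of 0.850 to 3.86 that includes equal levels. Its levels without that UMI were less than 2-fold apart. Thus 1 of 29 members tested was over 2-fold higher and 1 lower, beside 13.4% of all 8960 genes (5.08% higher, 8.34% lower). Isg15 was 116 against 133 CPM, Irf1 120 against 100 and Iigp1 51.4 against 64.7. Scaled by the median ratio of all genes, 2 members were higher and 0 lower. In the lists of other genes, Socs3 was 434 against 110 CPM and Ifngr2, a chain of the interferon gamma receptor, 120 against 51.7. Ptpn11 was 45.6 against 12.9 CPM, and Tlr4 had 21 UMIs against 0, which made 4 pathway genes higher of 21 tested. Mavs at 17.4 against 35.6 CPM and Irf2 at 83.7 against 168 were the 2 lower. Of 35 other interferon-induced genes 3 were higher: the chemokine Cxcl10 had 152 UMIs against 0, with 47 of the 152 in 1 cell, Ly6a had 147 against 2 and Phf11b 20 against 0.

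In smooth-muscle-like cells Isg15 and Irf1 were lower in the ligated library, while most members lay within 2-fold. Of 22 members tested, 5 were over 2-fold lower and none over 2-fold higher, beside 4.72% lower and 4.58% higher of 6511 genes (9.29% in all). A log2 ratio above 0 was found for 7 of the 22. With at least 100 UMIs in both sums together, 2 were past 2-fold. Isg15 was 539 CPM in undamaged and 200 CPM in ligated cells, or 2.69-fold lower (2.21 to 3.29), and Irf1 was 456 against 193 CPM, or 2.36-fold lower (1.92 to 2.92). Isg15 was seen in 60 of 159 undamaged and 82 of 296 ligated cells, and the cell with most held 22 of 214 and 20 of 193 of its UMIs. After thinning to 2000 UMIs a cell, 71.6% of the type I UMIs of undamaged smooth-muscle-like cells lay in 14 of 120 cells, and 39.3% of those of ligated cells in 9 of 230. Ifit1 was 78.0 against 26.9 CPM, but 24 of its 31 undamaged UMIs came from 1 cell. Irgm1 had 14 UMIs against 9 (35.2 and 9.33 CPM) and Ifih1, the RNA sensor MDA5, 16 against 18 (40.3 and 18.7 CPM). Ifi27l2a went the other way, at 269 CPM in undamaged and 464 CPM in ligated cells. The median log2 ratio over the 22 members was -0.28, against -0.03 over all genes. Endothelial markers summed to 1621 CPM in undamaged and 1990 CPM in ligated smooth-muscle-like cells, with 5 of 8 at 0 in each, and macrophage and monocyte markers to 12.6 and 6.22 CPM. Of 16 pathway genes tested none passed 2-fold, and of 19 other interferon-induced genes Parp9 was lower, at 73.0 against 30.1 CPM.

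**Figure D3:**
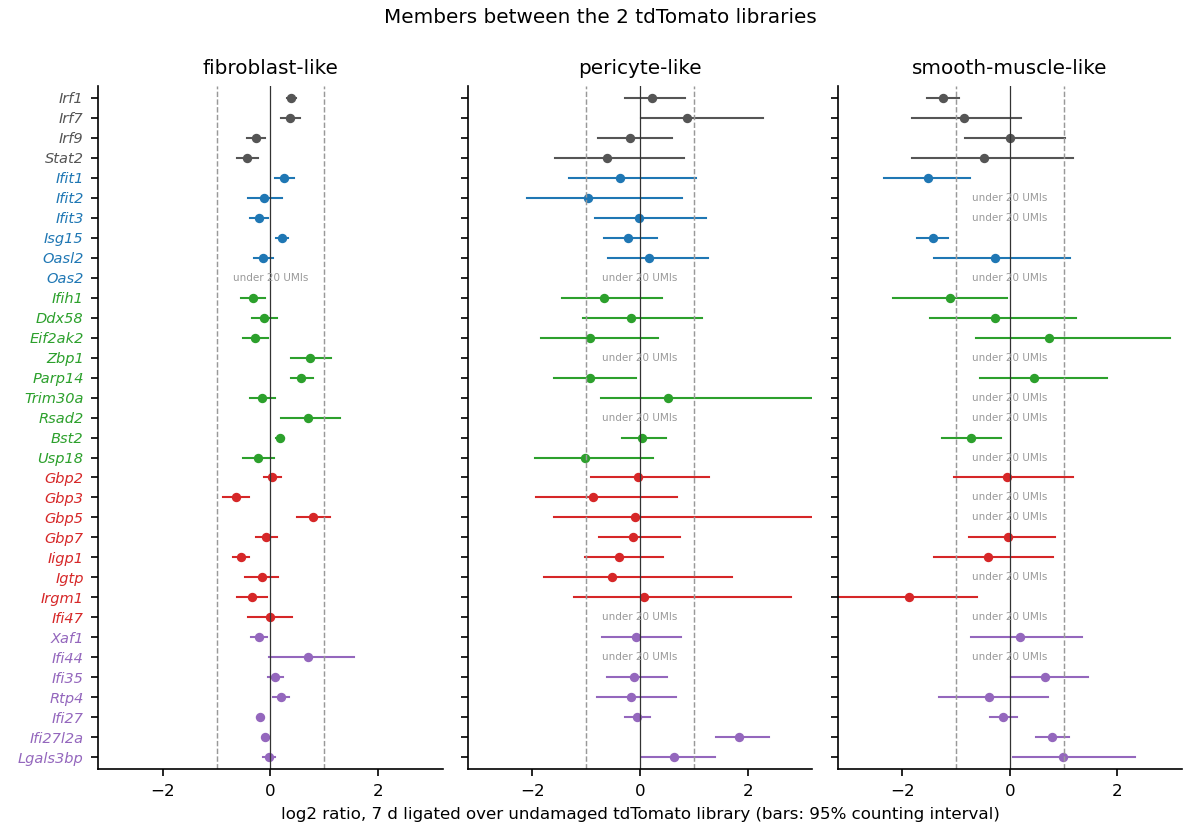
Log2 ratio of each member, ligated over undamaged tdTomato library, in 3 cell classes, coloured by role; bars are 95% counting intervals, some of which run past the axis, and dashed lines mark 2-fold. All 33 members tested in fibroblast-like cells lie inside 2-fold, Ifi27l2a lies above it in pericyte-like cells, and Isg15, Irf1, Ifit1, Irgm1 and Ifih1 lie below it in smooth-muscle-like cells.

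Pericyte-like and fibroblast-like cells of the same 3 undamaged citrine hearts could be tested with the heart as the replicate. The p-values below come from edgeR, which draws each gene's spread between hearts toward that of all genes. They thus do not measure the spread of these 3 hearts alone. The classes came from clusters made without the members. Ifi27l2a was 402, 1050 and 610 CPM in pericyte-like cells of hearts 1 to 3 and 3247, 2269 and 3127 CPM in fibroblast-like cells. The groups did not overlap, and the log2 fold change was -2.35 ± 0.24 (SE, edgeR adjusted p = 4.77e-21). Ifit3 was 19.1, 13.3 and 12.7 CPM in pericyte-like and 63.6, 37.1 and 56.5 CPM in fibroblast-like cells, a log2 fold change of -1.84 ± 0.49 (edgeR adjusted p = 0.00299). Ifi44 was 0, 6.67 and 12.7 CPM against 1.34, 0.705 and 1.90, higher in 2 of 3 hearts (log2 2.61 ± 0.82, edgeR adjusted p = 0.0171). Thus 3 of 33 members tested were called, 1 higher and 2 lower, beside 9.97% of 11440 genes (4.1% higher, 5.87% lower). Hearts 1 and 3 had 14 pericyte-like cells each and heart 2 had 187. Fibroblast markers summed to 23338 CPM in the pericyte-like cells, and DESeq2 called Ifi27l2a alone, while without heart 2 the Ifit3 call was lost, and without heart 1, heart 2 or the block the Ifi44 call (without heart 3 Ifi44 had too few counts to be tested). The GBP and IRG set had 0 of 8 called in edgeR's quasi-likelihood test, and 0 at a p under 0.05 before adjustment. Of the pathway list 1 of 27 was higher (Irf8) and 2 were lower (Socs3 and Ifngr1), and of the other interferon-induced list 2 of 49 were higher and 8 lower.

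Progenitor-like fibroblasts carried less of several interferon-stimulated genes than the other fibroblast-like cells of the same heart, and more Ifi27l2a. Progenitor-like fibroblasts, marked by Pi16 and Dpp4, are known as a reservoir of stromal cells in many tissues. Of 33 members tested over the 3 citrine hearts, 2 were higher and 10 lower by edgeR's quasi-likelihood test with Benjamini-Hochberg adjustment, beside 12% and 13.4% of 11524 genes (25.5% in all). Of 32 members tested over the 4 PDGFRa hearts, 1 was higher and 10 lower, beside 6.44% and 7.33% of 10828 genes (13.8% in all). The median log2 fold change was -0.31 over the members and -0.01 over all genes in citrine hearts, and -0.27 and 0.00 in PDGFRa hearts. Each PDGFRa heart was set against itself, but the other fibroblast-like cells differed in makeup between these hearts: without the activated-like clusters their number went from 2666 to 1711 and from 3247 to 2076 cells in hearts 1 and 2, and from 933 to 932 and from 1352 to 1352 in hearts 3 and 4. The PDGFRa effect thus pools hearts of mixed makeup and unlabelled condition. Of the called members 6 were called in both libraries: Ifi27l2a higher, and Iigp1, Irf1, Ifi47, Bst2 and Lgals3bp lower. That is 50.0% of the 12 citrine calls and 54.5% of the 11 PDGFRa calls. The same overlap over all genes called was not counted, so these shares are not shown to be particular to the members.

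Ifi27l2a was 5182, 4167 and 5462 CPM in progenitor-like cells of citrine hearts 1 to 3 and 3042, 2108 and 2749 CPM in other fibroblast-like cells. In PDGFRa hearts 1 to 4 it was 2210, 2215, 2071 and 3018 CPM against 608, 609, 1084 and 1630 CPM. It was higher in all 7 hearts, by log2 0.91 ± 0.05 (SE, edgeR adjusted p = 2.61e-10) and 1.32 ± 0.17 (edgeR adjusted p = 0.00294). These calls held under every alternative run, with adjusted p up to 0.0236.

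Iigp1 showed the reverse. It was 6.12, 11.4 and 18.4 CPM in progenitor-like cells of citrine hearts and 44.2, 27.8 and 36.3 CPM in the others, and 9.81, 17.8, 11.2 and 13.8 CPM against 69.2, 57.9, 38.9 and 34.0 CPM in PDGFRa hearts. Groups did not overlap in either library, and the log2 fold changes were -1.37 ± 0.19 (edgeR adjusted p = 2.1e-05) and -1.92 ± 0.22 (edgeR adjusted p = 0.00167). These calls too held under every alternative run. Irf1 was 35.0, 48.9 and 50.1 CPM against 57.2, 75.3 and 64.7 CPM in citrine hearts, and 65.9, 85.9, 35.2 and 31.4 CPM against 175, 158, 74.3 and 47.8 CPM in PDGFRa hearts. It was lower in each of the 7 hearts, by log2 -0.52 ± 0.10 (edgeR adjusted p = 3.64e-04) and -1.07 ± 0.14 (edgeR adjusted p = 0.00295), and without the heart as a block the PDGFRa call was lost (adjusted p = 0.192). Ifi47 fell by log2 1.60 and 1.59, with levels of 0.646 to 7.12 CPM in progenitor-like cells of the 7 hearts. Its PDGFRa call was lost without the block, without heart 2 or with hashtags assigned by a mixture. Without PDGFRa heart 1, or with a hashtag at least 5 times the second, Ifi47 had too few counts to be tested there. Bst2 (log2 -0.38 and -0.60) and Lgals3bp (-0.36 and -0.39), a secreted glycoprotein gene, changed less. All 4 of these calls were lost without the block, and that of Lgals3bp in PDGFRa hearts also without heart 1, 2 or 3.

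The type I set differed between the 2 libraries in its calls. Over all genes 25.5% were called in citrine and 13.8% in PDGFRa hearts. In citrine hearts 0 of 6 type I genes were called by edgeR's quasi-likelihood test, with 3 at a p under 0.05 before adjustment. In PDGFRa hearts 2 of 5 fell, Isg15 (log2 -0.89 ± 0.21, edgeR adjusted p = 0.0308) and Oasl2 (-0.40 ± 0.10, edgeR adjusted p = 0.0339), and Ifit3 at -1.13 ± 0.31 had an adjusted p of 0.0530 in edgeR. Isg15 was 50.1, 33.9, 39.6 and 35.6 CPM in progenitor-like cells of PDGFRa hearts against 99.0, 94.2, 51.7 and 45.5 CPM, and 67.4, 81.6 and 64.8 CPM against 81.9, 54.4 and 71.6 CPM in citrine hearts. In citrine heart 2 it was higher in progenitor-like cells. The difference of the effect between libraries was itself tested: 0 of 32 members passed an adjusted p of 0.05 in edgeR, beside 1.31% of 11448 genes, and 4 had a p under 0.05 before adjustment. For Isg15 the difference was -0.98 ± 0.30 (edgeR adjusted p = 0.138). The Isg15 call was lost without PDGFRa heart 1, without heart 2 and without the block, and the Oasl2 call without any 1 heart.

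Of the GBP and IRG set 4 of 8 fell in citrine hearts (Iigp1, Ifi47, Gbp7 and Gbp2) and 3 of 8 in PDGFRa hearts (Iigp1, Ifi47 and Igtp). Over all genes 13.4% fell in citrine and 7.33% in PDGFRa hearts. Gbp7 (-0.32 ± 0.11) and Gbp2 (-0.31 ± 0.11) had edgeR adjusted p of 0.0426 and 0.0445 and lost the call without any 1 citrine heart. Igtp was 5.99, 4.84, 4.40 and 9.94 CPM against 13.3, 9.77, 13.3 and 11.5 CPM in PDGFRa hearts (log2 -0.95 ± 0.24, edgeR adjusted p = 0.0411), a call lost without heart 1, 2 or 3. Gbp3, Gbp5 and Irgm1 were called in neither library, with log2 values from -0.87 to -0.08.

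The other calls were made in 1 library each. In citrine hearts Irf7 rose by log2 0.40 ± 0.10 (edgeR adjusted p = 0.00744), while Ifi27 (-0.60 ± 0.08, edgeR adjusted p = 1.58e-05), Parp14 (-0.46) and Xaf1 (-0.31) fell. In PDGFRa hearts Rsad2 fell by log2 2.14 (SE 0.41, edgeR adjusted p = 0.0139), with 2.72, 1.61, 2.44 and 3.53 CPM in progenitor-like cells against 12.0, 14.2, 15.6 and 4.54 CPM, and Rtp4 (-0.42) fell less. The Ifi27 call held under every alternative run. Irf7, Parp14, Xaf1, Rsad2 and Rtp4 each lost the call under 2 to 7 alternatives, among them DESeq2 for all but Rsad2, which was lost without heart 1 or without heart 2. Without the activated-like clusters, 17 of 32 members were called in PDGFRa hearts (1 higher, 16 lower), beside 21.2% of 10853 genes, against 11 of 32 and 13.8% with them.

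**Figure D4:**
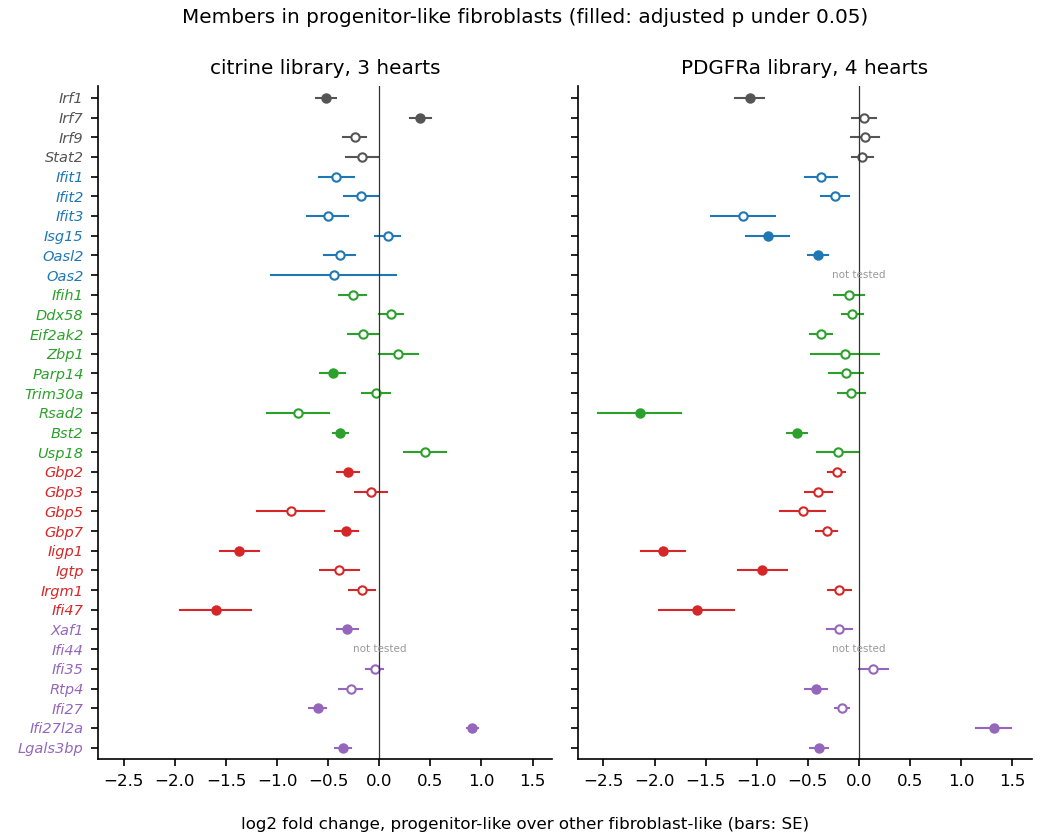
Log2 fold change of each member, progenitor-like over other fibroblast-like cells, over 3 citrine hearts (left) and 4 PDGFRa hearts (right), with SE bars and filled points for an edgeR adjusted p under 0.05. Ifi27l2a lies to the right in both, at 0.91 and 1.32, and Iigp1 and Ifi47 lie farthest left among members called in both.

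Pathway genes were called in both directions in the same comparison. Of 27 tested, 4 were higher and 4 lower in citrine hearts, beside 12% and 13.4% of all genes. In PDGFRa hearts 3 were higher and 3 lower, beside 6.44% and 7.33% of all genes. The receptor chain Ifngr1 fell by log2 0.73 and Ifnar2 by 0.40 in citrine hearts. Irf8 fell in both libraries, by log2 2.22 and 0.85, as did Tmem173, by 0.89 and 1.31. Tlr4 rose by log2 0.62 and 0.94 and Socs3 by 0.42 and 0.46. Of other interferon-induced genes, 4 of 49 were higher and 20 lower in citrine hearts, and 3 of 46 higher and 11 lower in PDGFRa hearts. The same shares of all genes stand beside these counts. Ly6c1 (log2 2.48 and 2.92) and Ly6a (1.42 and 1.99) were the largest rises; Ly6a encodes Sca-1, a surface protein used to sort progenitor cells. Ifitm1 fell by log2 3.45 and 3.37, Ifi203 by 1.32 and 0.95, and the chemokine Cxcl10 by 2.87 in PDGFRa hearts.

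Isg15 was higher in activated-like than in progenitor-like and the remaining fibroblast-like cells of the 2 libraries with such clusters. Its level in activated-like, progenitor-like and the remaining cells was 209, 59.6 and 102 CPM in the ligated tdTomato library and 121, 36.7 and 64.7 CPM in the PDGFRa library. In the citrine library it was 107 CPM in the cluster led by Ccl2, Ptgs2 and Cxcl5, 62.3 in progenitor-like and 57.4 CPM in the remaining cells. Ifi44 was 13.9 CPM in activated-like and 0.319 CPM in the remaining ligated tdTomato cells. The GBP and IRG set did not share this order, with 216 CPM in activated-like against 256 in the remaining ligated tdTomato cells and 172 against 208 in PDGFRa. It was 306 CPM in the citrine cluster led by Ccl2 against 187 in the remaining cells. These values are a description of 1 library each, without a test.

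Type I transcripts were unevenly spread over fibroblast-like cells. Each cell was thinned to 2000 UMIs and shallower cells were left out (217, 136, 186 and 136 fibroblast-like cells). A type I UMI was then found in 27.9%, 27.5%, 20.8% and 16.9% of cells in the 4 libraries, most of which held 1 to 2 (508, 667, 1860 and 1744 cells). Cells with at least 3 type I UMIs were 109 of 2213 (4.93%, exact 95% interval 4.06 to 5.91) in undamaged tdTomato and 156 of 2989 (5.22%, 4.45 to 6.08) in ligated tdTomato. They were 309 of 10425 (2.96%, 2.65 to 3.31) in citrine and 341 of 12361 (2.76%, 2.48 to 3.06) in PDGFRa. Without thinning the shares were 10.6%, 12.2%, 14.5% and 11.9%. These cells held 49.6%, 50.6%, 48.5% and 50.7% of all type I UMIs, and the cell with most held 21, 44, 31 and 39 of its 2000. They are the top of a range and not a type: 42, 62, 102 and 124 of them had exactly 3 UMIs, and 114, 152, 327 and 315 further cells had 2. Over citrine hearts 1 to 3 the share was 4.51%, 2.42% and 3.57%, and over PDGFRa hearts 1 to 4 it was 3.54%, 3.29%, 1.78% and 1.86%. In smooth-muscle-like cells the share was 14 of 120 (11.7%, 6.53 to 18.8) in the undamaged and 9 of 230 (3.91%, 1.80 to 7.30) in the ligated tdTomato library, intervals that overlap.

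Cells with more type I transcripts also held more of the other members. The GBP and IRG set was 212, 335 and 1147 CPM in undamaged tdTomato cells with 0, 1 to 2 and at least 3 type I UMIs. It was 175, 299 and 843 CPM in ligated tdTomato, 134, 215 and 1094 CPM in citrine and 132, 288 and 1317 CPM in PDGFRa cells. The order was the same in each of the 7 hashed hearts, whose cells with at least 3 type I UMIs stood between 885 and 1550 CPM. Of the 28 members outside the type I set, 27 rose in level from bin to bin in each library, and Ifi27 did not. How many of all genes rose in this way, or by 2-fold, was not counted. Neither the order nor a 2-fold rise is thus shown to be particular to the members. Iigp1 went from 15.7 to 33.9 to 294 CPM in citrine and from 28.5 to 88.9 to 512 CPM in PDGFRa cells, and Irf7 from 26.0 and 14.5 CPM in the lowest bin to 233 and 138 CPM in the highest. Rsad2 went from 0.908 to 137 CPM in citrine and from 1.22 to 248 CPM in PDGFRa cells.

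In the citrine and PDGFRa libraries, Irf1, Ifi27 and Ifi27l2a were the members less than 2-fold higher in the top bin than in the lowest. In the tdTomato libraries Lgals3bp was too, with Ddx58 in the undamaged and Gbp2 in the ligated library. Irf1 was 63.4, 77.4 and 82.5 CPM over the 3 bins in citrine and 111, 137 and 180 CPM in PDGFRa cells, and Ifi27 was 327, 334 and 257 CPM and 260, 277 and 221 CPM. Ifi27l2a was 2755, 3195 and 5272 CPM in citrine and 1054, 1308 and 2088 CPM in PDGFRa cells. Pearson's r across fibroblast-like cells between the summed sets was 0.29, 0.29, 0.32 and 0.36 in the 4 libraries, over 2213, 2989, 10425 and 12361 thinned cells that share a library and a depth, and is given as a description. Median depth before thinning was 7745, 7708 and 9550 UMIs over the 3 bins in PDGFRa cells and 8264, 8175 and 7767 in citrine cells. Activated-like cells were 19.1%, 17.3% and 31.7% of the bins in PDGFRa. Median UMIs per cell of the endothelial, macrophage and monocyte, lymphocyte and neutrophil marker lists were 0 in every bin of each library.

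**Figure D5:**
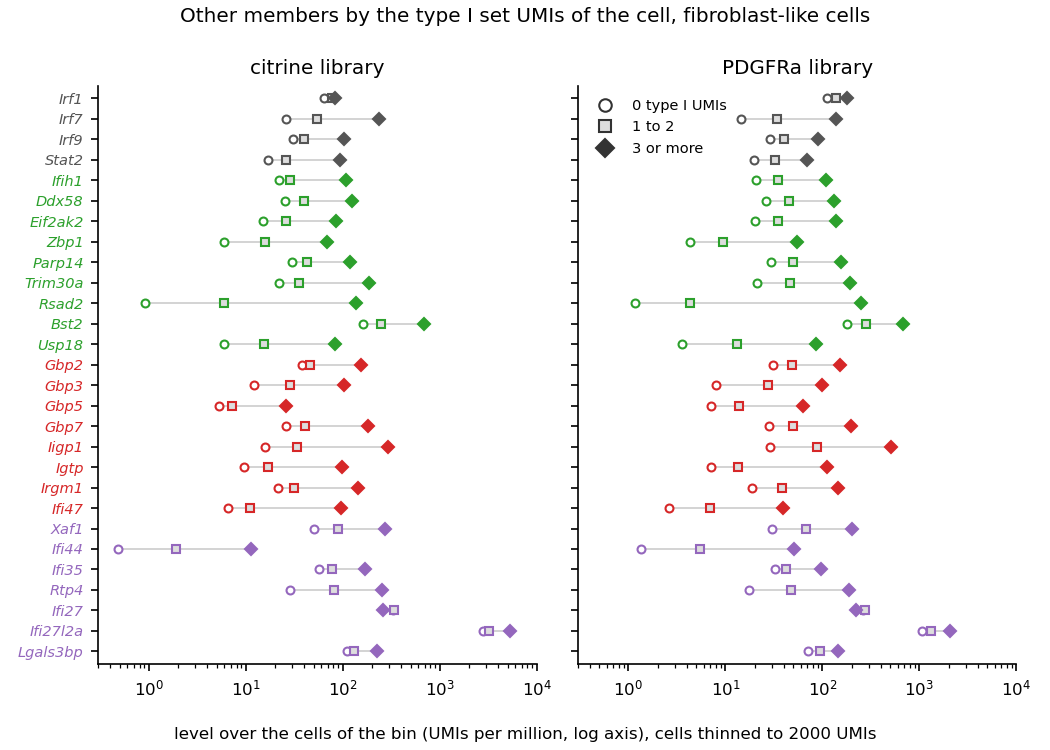
Level of the 28 members outside the type I set in fibroblast-like cells with 0 (circles), 1 to 2 (squares) and at least 3 (diamonds) type I UMIs of 2000, in CPM on a log axis, for the citrine (left) and PDGFRa (right) libraries. Diamonds lie to the right of circles for every member except Ifi27, and by less than 2-fold for Irf1 and Ifi27l2a.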

How the data were processed

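Per the labels' protocols, the authors aligned reads to a modified mm10 with Cell Ranger, and the deposited values are UMI counts, 1 matrix a library. The submitters' processing notes also name Seurat 2.1. The counts are whole numbers and were used as deposited. The labels' count of hearts fixed the groups: 1 library each, with hearts told apart by hashtag in the citrine and PDGFRa libraries. The 34 members and all gene lists were chosen with earlier results of these data known.

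Cells were kept from 500 genes and 1000 UMIs upward if mitochondrial UMIs were no more than 10%. No doublet caller was run; a cell counted for a heart only if its highest hashtag had at least 10 counts and at least 3 times the second, which held for 65.1% of citrine and 75.4% of PDGFRa cells. Each library was clustered on its own (scanpy 1.11.5, Leiden resolution 1, leidenalg 0.10.2) without the members and the other interferon genes, and clusters were named from marker lists.

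Levels are UMIs per 1000000 of the class with exact 95% Poisson intervals. Ratios of the tdTomato libraries added 1 UMI to each sum, needed 20 UMIs in both together and were called past 2-fold. Over hearts, counts were summed per heart and class and tested with edgeR 4.0.16 (quasi-likelihood, TMM, filterByExpr, Benjamini-Hochberg adjustment over all genes, threshold 0.05), with the heart as a block since both classes come from the same animals. On data simulated with 200 genes changed 4-fold, each of the 3 tests recovered 200. False calls were 5 for pericyte-like, 7 for citrine progenitor-like and 8 for PDGFRa progenitor-like cells. The changed genes were all expected to have at least 20 UMIs in the smallest sum. That sum held 52267 UMIs in the pericyte-like test. Recovery of low members or of smaller changes was therefore not tested. The simulated data also held no heart effect and gave all genes 1 common spread, so recovery under the differences between real hearts was not tested. Named genes were all members past 2-fold or called, both sets, and list genes past 2-fold or called. Alternatives were DESeq2 1.42.0, other filters, resolutions and hashtag rules, no block, and each heart left out; those without the activated-like or progenitor-like clusters, and hashtags by a mixture, were chosen after seeing the data. Promoter windows are from RefSeq (GRCm38.p6). Python 3.11.15, numpy 2.4.6, scipy 1.17.1, matplotlib 3.10.9 and R 4.3.3 were used. For a single gene of the pathway list, which the counts include, the value is not reported here.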

Additional observations from a re-analysis of the deposited data

How the results depend on the processing

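Depth limits low members: with 1 library a group, tdTomato ratios cover counting error alone, and the tests rest on 3 and 4 hearts. Each value was counted once per alternative, and a member under the filter in an alternative was left out of it. Ratios of members between the tdTomato libraries stayed within the main counting interval in 30 of 31. Member tests over hearts kept their call in 225 of 291 and lost it in 66, and no value of either kind changed direction. For whole comparisons, counts within a set fold of the main count, and levels or shares within the main interval, were 57 of 96. Levels or shares of 1 heart within the main interval were 37 of 84. For these a reversal was not scored, and other UMI cuts or no thinning change the share itself. The cause was not tested for any change below.

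Between the tdTomato libraries, members past 2-fold in fibroblast-like cells numbered 1 with no filter and 2 without the activated-like clusters, against 0. In pericyte-like cells they numbered 1 with at least 100 UMIs and 5 at resolution 0.5, against 2. In smooth-muscle-like cells they numbered 2 with at least 100 UMIs and 9 with no filter, against 5. At resolution 0.5 a smooth-muscle-like cluster was found in the ligated library (294 cells) but not in the undamaged one, so there is no value. The undamaged pericyte-like cluster then held 343 cells, led by genes that included Rgs5 and Myh11. At resolution 1 that library had 184 pericyte-like and 159 smooth-muscle-like cells. The pericyte-like value at resolution 0.5 thus compares classes of unlike makeup. Calls over hearts are given with the share of all genes called in brackets. Calls of pericyte-like cells over citrine hearts were 1 by DESeq2 (4.88%), against 3 (9.97%). With a heart left out they were 1 to 2 (5.5% to 8.14%). For progenitor-like cells, citrine calls were 7 by DESeq2 (14.6%) and 18 with no filter (16.9%), against 12 (25.5%). With a heart left out they were 10 to 13 (19.6% to 24%). PDGFRa calls were 17 without the activated-like clusters (21.2%) and 4 to 11 with a heart left out (5.85% to 13.5%), against 11 (13.8%). They were 4 without heart 1 (5.85%) and 4 without heart 2 (6.56%). The heart block pairs classes of the same animal. Without it the calls were 3 for pericyte-like (17%), 8 for citrine progenitor-like (21.6%) and 6 for PDGFRa progenitor-like cells (7.91%).

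The type I level over all kept cells was 300.0 CPM in undamaged and 281 CPM in ligated tdTomato. With cells thinned it was 277 in ligated tdTomato, 204 in citrine and 169 CPM in PDGFRa, and with at most 5% mitochondrial UMIs 191 CPM in PDGFRa. The GBP and IRG level was 227 CPM over all kept ligated tdTomato cells, and thinned it was 286, 177 and 187 CPM in undamaged tdTomato, citrine and PDGFRa. The share of cells high in the type I set was, in the 4 libraries, 10.1%, 10.3%, 6.10% and 5.31% at 2 UMIs, 2.12%, 2.31%, 1.48% and 1.25% at 5 UMIs, 2.35%, 2.37%, 1.47% and 1.26% thinned to 1000 UMIs, and 10.6%, 12.2%, 14.5% and 11.9% with no thinning.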

Other observations

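A cluster of 13 cells in the undamaged tdTomato library carried endothelial markers, which summed to 36289 CPM with 0 of 8 at 0. Its type I set stood at 3001 CPM (exact 95% Poisson interval 2369 to 3751) and its GBP and IRG set at 3586 CPM (2891 to 4398), against 279 and 272 CPM in fibroblast-like cells of that library. Iigp1 was 2612 CPM on 67 UMIs in 9 of the 13 cells, with at most 18 UMIs in 1 cell, and Bst2 1013 CPM on 26 UMIs in 10 cells. Of the type I UMIs 40 of 77 came from 1 cell, which held 24 of the 36 Ifit1 UMIs. Ifi27l2a, the most abundant member in fibroblast-like cells, had 0 UMIs, where 3 UMIs would be 117 CPM. These are 13 cells of 1 library with a median of 1899 UMIs, and no other library had such a cluster.

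The genes outside the members that followed the summed type I set most closely across fibroblast-like cells, ranked by the lower Pearson's r of the citrine and PDGFRa libraries over 10425 and 12361 thinned cells, were Ifit3b (0.23 and 0.29), Phf11d (0.20 and 0.20), Cmpk2, Gm4951, Rnf213, Ifitm3, Mndal, Oasl1, Cxcl10 and Ifi203. For the GBP and IRG set the list was the same but for Ly6e in place of Oasl1. Ifit3b is a near copy of Ifit3, and reads of the pair may have been shared out between them. Rnf213, a large ubiquitin ligase gene, was the 1 gene of these that stood in no list. The values are low, describe sparse counts and carry no test.

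The 4 PDGFRa hearts, which the labels put in no condition, fell into 2 pairs by the activated marker list, which summed to 6940, 8004, 462 and 474 CPM in fibroblast-like cells of hearts 1 to 4, and by Cthrc1, at 814, 1123, 20.1 and 14.4 CPM. Zbp1 was 10.0, 8.41, 4.91 and 4.86 CPM and Lgals3bp 94.5, 81.8, 65.8 and 73.1 CPM in the same order. Ifi35 was 29.1, 27.1, 44.9 and 37.7 CPM, and Rsad2 11.5, 13.3, 12.3 and 4.27 CPM, an order that followed neither.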
